A study of Mus musculus with 10 samples.

Results

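The Toll-like receptors are a family of innate immune sensors, and 10 of their genes were chosen by name among the 24538 genes of the count files. Of these, 5 encode receptors of the cell surface (Tlr1, Tlr2, Tlr4, Tlr5 and Tlr6) and 5 encode receptors of endosomes (Tlr3, Tlr7, Tlr8, Tlr9 and Tlr13). Macrophages from lung metastases (metastasis-associated macrophages, MAMs, 5 libraries) were compared with resident alveolar macrophages from normal lungs (RAMs, 5 libraries). All mice were wild type C57BL6/J animals 8 to 10 weeks old, and metastases were seeded through the tail vein with E0771-LG, a mouse mammary tumor cell line. Both populations were sorted as large live CD45+F4/80+LY6C-MRC1+ cells, MAMs as the CD11B+CD11C- subset and RAMs as the CD11B-CD11C+ subset, after digestion with the transcription inhibitors alpha-amanitin and actinomycin D. Each MAM library came from metastases pooled from 2 to 4 mice. Tissue and sorted subset differ together between the groups, so their parts in a difference cannot be told apart.

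Toll-like receptors recognize conserved molecules of microbes and of damaged cells and signal through the adaptor MyD88, through TRIF, or through both. Receptors of the cell surface bind lipids and proteins of microbes, whereas endosomal receptors bind nucleic acids and need the chaperone UNC93B1 to leave the endoplasmic reticulum. In lung macrophages these receptors lead to inflammatory cytokines through NF-kappa B and to type I interferon through interferon regulatory factors.

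Counts on genes ran from 55391447 to 87523247 in MAM libraries and from 50746305 to 72150650 in RAM libraries, and no replicate libraries were identical. Levels are given as CPM, counts scaled to the size of their library by edgeR's TMM normalization, and fold changes are MAMs over RAMs. Adjusted p-values are from the quasi-likelihood test of edgeR, corrected over all genes tested by the method of Benjamini and Hochberg, and SE is the standard error. Summed monocyte markers ran from 6769 to 7948 CPM in MAMs, beside 82.2 to 99.7 in RAMs, mostly Itgam, the gene of the sorting marker CD11B. Without Itgam the sums were 921 to 1105 and 20.5 to 38.1 CPM. For alveolar macrophage markers, led by Chil3, the sums were 427 to 813 in MAMs, beside 11774 to 14558 in RAMs. Markers of other cells also moved with the groups. Stromal and endothelial markers, led by Kdr, summed to 41.1 to 94.6 CPM in MAMs, beside 2.11 to 12.3 in RAMs. Epithelial and tumor cell markers, led by Krt19, summed to 16.7 to 25.6 and 609 to 734 CPM, and T and NK cell markers, nearly all of it Cd2, to 11.6 to 36.2 and 254 to 313. The largest epithelial and tumor cell means in RAMs were Krt19 (436 CPM), Cdh1 (131) and Epcam (76.8). Of the 7 tested genes of that list, 6 were called lower in MAMs. Krt8 and Krt18 went the other way, with MAM means of 1.48 and 1.81 CPM, beside RAM means of 0.0453 and 0.119. Krt18 was at 8.84 CPM in MAM replicate 1. Whether macrophages or other cells held these transcripts was not tested. Dendritic cell markers summed to 221 to 275 CPM in MAMs, beside 26.1 to 37.9 in RAMs, and most of this in MAMs was Bst2 (246 and 11.5 CPM), which macrophages can also express. Without Bst2 the dendritic cell sums were 3.44 to 13.9 and 17.2 to 26.0 CPM, where Ccr7 was higher in MAMs and Clec9a lower. Flt3 had at most 1 count in a MAM library, Siglech had none, Cd209a had 0 to 156 and Xcr1 25 to 151. Neutrophil markers, led by Csf3r, summed to 122 to 293 CPM in MAMs, beside 106 to 166 in RAMs, and B cell markers, led by Cd79a, to 4.27 to 23.1, beside 2.67 to 16.7. The part of other cells in the receptor differences was not tested. Replicates are separate samples in the labels, and each p-value measures the spread between these samples. The paper describes its samples as single mice or as pooled metastases. The labels give pooling for MAM samples alone, so the spread within MAMs and within RAMs may not measure the same thing.

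All 10 receptor genes passed the filter of a mean FPKM of at least 1 in either group, Tlr1 through the MAM libraries alone. Of the 10 genes, 9 had an adjusted p under 0.05, against 56.2% of the 11571 genes tested. Tlr1, Tlr3, Tlr6, Tlr7, Tlr9 and Tlr13 were higher in MAMs, where 28.9% of all genes were called, and Tlr2, Tlr5 and Tlr8 were lower, where 27.3% were. A fold change over 2 in addition was seen in 5 receptor genes, against 30.3% of all genes. These were Tlr1, Tlr3, Tlr9 and Tlr13 upward (15.3% of all genes) and Tlr5 downward (15.1% of all genes). The libraries of the groups did not overlap for 9 receptor genes, 6 higher and 3 lower, against 44.9% of all genes (23.7% higher and 21.2% lower). The median log2 fold change was 2.41 over the endosomal receptors and 0.22 over those of the cell surface, beside -0.02 over all genes tested. Tlr1 could pass the filter only by being higher in MAMs, and without it the surface median was -0.30. Of the 9 receptor genes that reached the filter in both groups, 5 were called higher and 3 lower. By more than 2-fold, 3 of these were higher and 1 lower. Of all 9834 such genes, 2639 were higher and 2527 lower, and 1070 and 1122 by more than 2-fold. Each class held genes of both directions, with 4 endosomal genes higher and 1 lower, and 2 surface genes higher and 2 lower. RNA came from populations of cells, in which fewer cells of a type and less RNA per cell cannot be told apart.

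**Figure D1:**
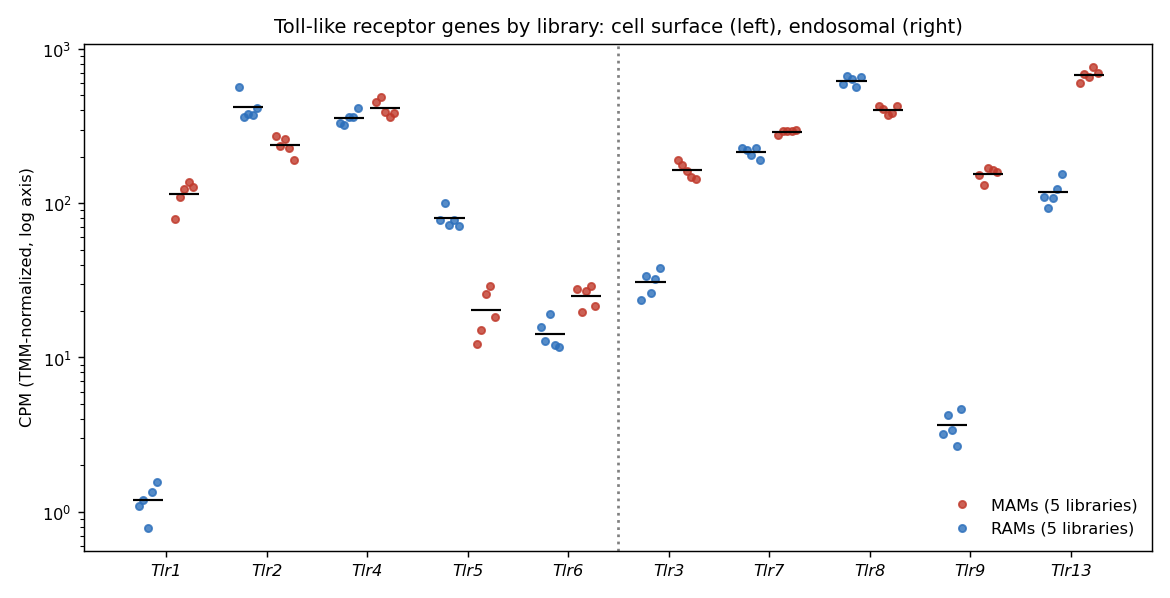
Levels of the 10 Toll-like receptor genes in CPM (log axis) in each of 5 MAM (red) and 5 RAM (blue) libraries, with the mean as a bar, cell surface receptors left of the dotted line and endosomal receptors right of it. Tlr1 and Tlr9 lay at 1.19 and 3.63 CPM on average in RAMs and at 115 and 155 in MAMs, while the Tlr4 libraries of both groups overlapped between 363 and 413 CPM.

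Tlr1 (ENSMUSG00000044827.10) lies on the minus strand at chr5:64924679-64933563 of GRCm38, and Tlr6 at chr5:64952031-64960097 on the same strand, with 18468 bases between them. Tlr8 (chrX:167242696-167264329, minus strand) and Tlr7 (chrX:167304929-167330558, minus strand) are also neighbors, 40600 bases apart. Tlr9 is at chr9:106222598-106226883 on the plus strand. No annotated gene overlaps the receptor genes except at Tlr3. The neighbors did not change alike: Tlr1 and Tlr6 both rose by unequal amounts, and Tlr8 was lower in MAMs while Tlr7 was higher.

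The 250 bases before 4 start sites are shown because they belong to the receptor genes with the largest increases (Tlr1 and Tlr9), to the neighbor of Tlr1 (Tlr6) and to an endosomal receptor gene that was lower in MAMs (Tlr8). They are RefSeq sequences of GRCm38.p6, written from 5′ to 3′ on the strand of the gene, at chr5:64933559-64933808 (Tlr1), chr9:106222348-106222597 (Tlr9), chr5:64959167-64959416 (Tlr6, the start nearer to its coding part) and chrX:167264330-167264579 (Tlr8). Capitals mark letters that match a searched motif.
Tlr1: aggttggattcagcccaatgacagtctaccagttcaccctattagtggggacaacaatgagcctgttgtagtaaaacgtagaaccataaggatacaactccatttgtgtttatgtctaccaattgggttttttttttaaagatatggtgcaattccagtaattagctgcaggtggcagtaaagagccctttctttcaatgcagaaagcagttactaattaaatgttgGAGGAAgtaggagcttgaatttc
Tlr9: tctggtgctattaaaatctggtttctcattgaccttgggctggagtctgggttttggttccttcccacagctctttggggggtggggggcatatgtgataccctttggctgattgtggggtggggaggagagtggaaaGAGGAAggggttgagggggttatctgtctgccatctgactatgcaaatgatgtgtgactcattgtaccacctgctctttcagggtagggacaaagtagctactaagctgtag
Tlr6: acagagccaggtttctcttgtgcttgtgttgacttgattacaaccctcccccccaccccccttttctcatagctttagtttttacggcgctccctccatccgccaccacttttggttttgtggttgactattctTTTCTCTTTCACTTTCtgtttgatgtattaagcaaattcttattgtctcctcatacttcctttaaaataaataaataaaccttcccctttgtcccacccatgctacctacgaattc
Tlr8: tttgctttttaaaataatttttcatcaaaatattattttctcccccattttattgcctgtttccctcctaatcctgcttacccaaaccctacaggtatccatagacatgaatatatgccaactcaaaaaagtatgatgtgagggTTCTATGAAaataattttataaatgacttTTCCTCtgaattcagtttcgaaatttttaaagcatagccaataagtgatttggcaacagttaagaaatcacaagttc

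Windows were listed for 8 of the 10 receptor genes, 10 windows in all, but not for Tlr4 and Tlr7, and both strands were searched. The core bound by PU.1, the macrophage transcription factor, is GAGGAA. It was in 4 windows, 23 bases before the start of Tlr1, 112 before Tlr9, 83 before Tlr13 and 77 before Tlr8 (there as its reverse complement), and in 23.3% of all 32851 promoter windows. The core of the interferon-stimulated response element, GAAA repeated after any 2 bases, was found only in the window of Tlr6 printed above, as an overlapping pair on the other strand that begins 116 and 110 bases before the start, and in 2.98% of all windows. The interferon gamma element GAS, TTCNNNGAA, was in the windows of a second start of Tlr1 and of Tlr8, beside 7.02% of all windows. The NF-kappa B motif was in the windows of Tlr2 and Tlr3, beside 7.25%, and the Ets-IRF composite, GGAA followed after any 2 bases by GAAA, was in none, beside 2.3%. Thus the PU.1 letters stood before 3 genes that were higher in MAMs and 1 that was lower. A match of letters is a description of the window and not a binding site.

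Tlr1 pairs with TLR2 at the cell surface to sense triacylated lipoproteins, and its gene had the largest difference of the family. The 5 MAM libraries held 78.6, 109, 123, 137 and 128 CPM (replicates 1 to 5), and the RAM libraries 1.10, 1.19, 0.787, 1.34 and 1.56. Every MAM library lay far above every RAM library, and MAM replicate 1 was the lowest of its group. Means were 115 ± 22.8 CPM in MAMs and 1.19 ± 0.286 in RAMs (SD, n = 5), so the level in RAMs was 1.03% of that in MAMs. Its log2 fold change of 6.60 (SE 0.212, adjusted p = 1.26e-12 by edgeR) ranked 163 from the top of the 11571 genes tested. RAM libraries held 38 to 79 Tlr1 counts each. With counts scaled to totals alone, the RAM level was 1.19% of the MAM level for Tlr1, beside a lowest share of 1.06% (C1qb) among the 86 genes over 1000 CPM in MAMs. RNA carried between samples was not tested as a source of these counts. Among the genes whose centered log2 levels over the 10 libraries were most like Tlr1 were Mmp14 and Fyb, at root mean square differences of 0.163 and 0.221. This measure includes the difference between the groups, and their log2 fold changes were 6.73 and 6.37. Mmp14 averaged 246 CPM in MAMs and 2.32 in RAMs, and Fyb 983 and 11.9. Carried RNA was not tested for these low RAM levels either.

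Tlr6, the other partner of TLR2, which senses diacylated lipoproteins, rose by less. Its MAM libraries held 28.0, 19.6, 26.8, 29.0 and 21.6 CPM and its RAM libraries 15.8, 12.7, 19.3, 12 and 11.6. The groups did not overlap, but MAM replicate 2 and RAM replicate 3 almost met. Tlr6 had a log2 fold change of 0.80 (SE 0.188, adjusted p = 0.00191 by edgeR), and means were 25.0 ± 4.14 and 14.3 ± 3.23 CPM (SD, n = 5). Tlr1 and Tlr6 are close relatives. The authors counted uniquely mapped reads, so reads that map equally well to both genes would be missing from the counts. The longest transcripts of the 2 genes share 94.9% of 1076 aligned bases. Of the 2926 windows of 100 bases in Tlr1, 24.9% match Tlr6 with at most 2 mismatches, and 259 match it exactly. Of the Tlr6 windows, 20.4% match Tlr1 with at most 2 mismatches. The values of both are therefore uncertain, by an amount that was not tested. The ratio of Tlr1 to Tlr6 counts was 2.81, 5.59, 4.61, 4.73 and 5.93 in MAMs and 0.0697, 0.0936, 0.0414, 0.112 and 0.134 in RAMs. In counts, not scaled by length, Tlr1 thus exceeded Tlr6 in each MAM library and lay below it in each RAM library, a difference of 5.78 on the log2 scale (p = 0.00794 by a two-sided exact permutation test, the smallest value that 5 against 5 allow, and the same after adjustment over 2 ratios).

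Tlr2, the shared partner of both, went in the opposite direction. MAM libraries held 274, 233, 262, 228 and 191 CPM, and RAM libraries 566, 364, 376, 374 and 412. The groups did not overlap, and RAM replicate 1 stood above the other RAM libraries. Tlr2 had a log2 fold change of -0.82 (SE 0.127, adjusted p = 5.73e-05 by edgeR), with means of 238 ± 32.3 and 418 ± 84.8 CPM (SD, n = 5). Without RAM replicate 1 the call was kept, and over all alternatives the log2 fold change stayed between -0.98 and -0.69. Among the genes of the lipoprotein sensors, then, RNA of the common chain was lower in MAMs and RNA of both partner chains was higher. The values of Tlr1 and Tlr6 keep the limit of their shared sequence, and protein was not measured.

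Tlr5, the receptor of bacterial flagellin, was the receptor gene with the largest decrease. Its levels were 12.3, 15.1, 25.9, 29.3 and 18.4 CPM in MAMs and 77.4, 100.1, 72.4, 77.8 and 71.3 in RAMs. No libraries overlapped, and the MAM libraries varied most of all receptor genes, with a coefficient of variation of 35.5%. Tlr5 was 3.95-fold higher in RAMs, at 79.8 ± 11.7 CPM against 20.2 ± 7.17 in MAMs (SD, n = 5). On the log2 scale the fold change was -1.98 (SE 0.211, adjusted p = 1.08e-06 by edgeR), with a range of -2.15 to -1.85 over the alternatives. By the same measure as for Tlr1, the genes most like Tlr5 were Ggta1 (0.182), Fbxo32 (0.205) and Nav2 (0.211).

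Tlr4, the receptor of bacterial lipopolysaccharide, was the receptor gene that did not pass the test. MAM libraries held 450, 491, 390, 363 and 385 CPM and RAM libraries 330, 322, 363, 362 and 413, and the groups overlapped. Its log2 fold change was 0.22 (95% confidence interval 0.01 to 0.42, adjusted p = 0.0665 by edgeR). It passed without MAM replicate 4 (0.26, adjusted p = 0.0320 by edgeR) and without RAM replicate 5 (0.27, adjusted p = 0.0246 by edgeR), and it was 0.05 under upper-quartile normalization.

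**Figure D2:**
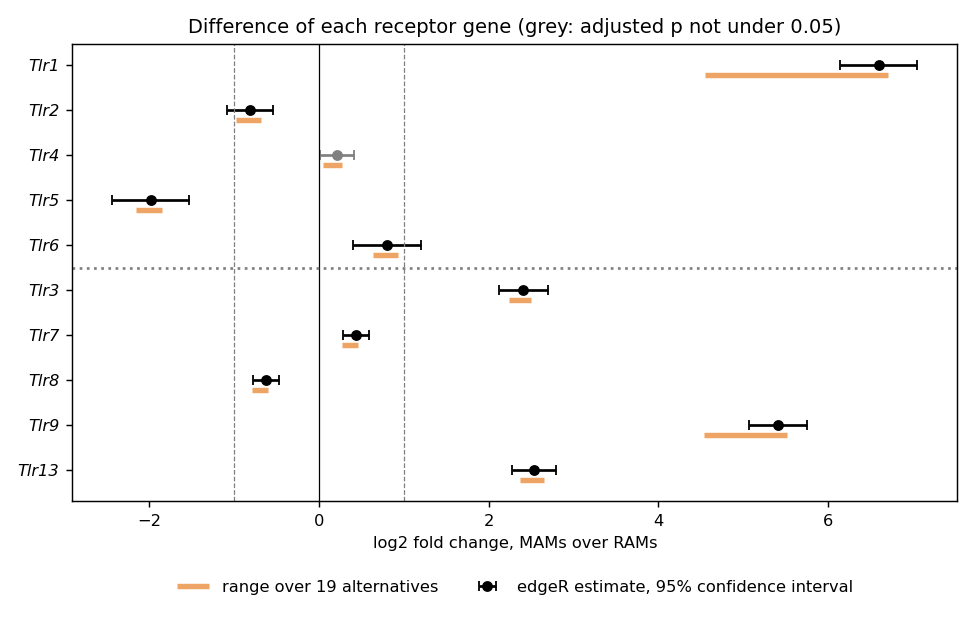
Log2 fold change of each receptor gene (MAMs over RAMs) from the edgeR fit with its 95% confidence interval, and as an orange bar the range over 19 alternative settings. Tlr1 (6.60) and Tlr9 (5.41) lie farthest to the right, Tlr5 (-1.98) farthest to the left, the dashed lines mark a fold change of 2, and no range over the alternatives crosses 0.

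Among the endosomal receptors, Tlr9, which senses unmethylated CpG DNA, rose most. The MAM libraries held 152, 131, 169, 163 and 159 CPM and the RAM libraries 3.18, 4.25, 3.38, 2.67 and 4.67. The groups were far apart, at 155 ± 14.6 and 3.63 ± 0.813 CPM (SD, n = 5), a fold change of 42.6. That is a log2 fold change of 5.41 (SE 0.161, adjusted p = 5.59e-13 by edgeR), and 128 to 283 Tlr9 counts lay behind each RAM value. With counts scaled to totals alone, the RAM level of Tlr9 was 2.72% of the MAM level. The summed dendritic cell markers were higher in MAMs through Bst2. Without Bst2 they were lower in MAMs, at 3.44 to 13.9 CPM beside 17.2 to 26.0 in RAMs. Most of that RAM sum was Clec9a, at 19.4 CPM on average beside 1.01 in MAMs. The means of Zbtb46, Xcr1, Cd209a and Ccr7 were higher in MAMs, and those of Flt3 and Siglech were lower. The list thus went in both directions. The part of dendritic cells in the Tlr9 result was not tested.

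Tlr7, a receptor of single-stranded RNA that shares the UNC93B1 chaperone and the MyD88 adaptor with TLR9, changed little. Its MAM libraries held 278, 293, 294, 293 and 296 CPM, and its RAM libraries 227, 222, 204, 229 and 189. The groups did not overlap, and MAM libraries were tightly grouped, with a coefficient of variation of 2.43%. Tlr7 had a log2 fold change of 0.44 (SE 0.0710, adjusted p = 7.94e-05 by edgeR), which ran from 0.27 to 0.46 over the alternatives. Each MAM library thus held 1.83, 2.23, 1.74, 1.79 and 1.87 Tlr7 counts per Tlr9 count, against 71.2, 52.2, 60.2, 85.2 and 40.4 in the RAM libraries. The ratio fell by 4.99 on the log2 scale in MAMs (p = 0.00794 by the same two-sided exact permutation test, again the smallest possible).

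Tlr8, the neighbor of Tlr7, was the endosomal receptor gene that was lower in MAMs. MAM libraries held 423, 407, 374, 384 and 429 CPM and RAM libraries 590, 665, 634, 568 and 659, without overlap. This is a log2 fold change of -0.63 (SE 0.0703, adjusted p = 1.90e-06 by edgeR). The transcripts of Tlr7 and Tlr8 share no exact stretch longer than 13 bases, and none of the windows of 100 bases matched, so reads of 1 gene are not near copies of the other.

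Tlr13, a mouse receptor of bacterial ribosomal RNA, had the highest FPKM of the receptor genes in MAMs. The MAM libraries held 598, 685, 654, 763 and 701 CPM, and the RAM libraries 110, 92.5, 108, 123 and 154. Every MAM library was well above every RAM library, with means of 680 ± 60.5 and 118 ± 23.1 CPM (SD, n = 5). Tlr13 was 5.79-fold higher in MAMs (log2 fold change 2.53, SE 0.122, adjusted p = 1.21e-10 by edgeR). Tlr3, the receptor of double-stranded RNA, which signals through TRIF alone, showed a difference of similar size. Its levels were 189, 178, 161, 147 and 143 CPM in MAMs and 23.7, 33.9, 26.1, 32.2 and 38.3 in RAMs, without overlap. The log2 fold change of Tlr3 was 2.41 (SE 0.136, adjusted p = 7.59e-10 by edgeR). The annotated antisense gene Gm45542 shares 117 bases with Tlr3, and without a stated strand setting reads there cannot be told apart.

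**Figure D3:**
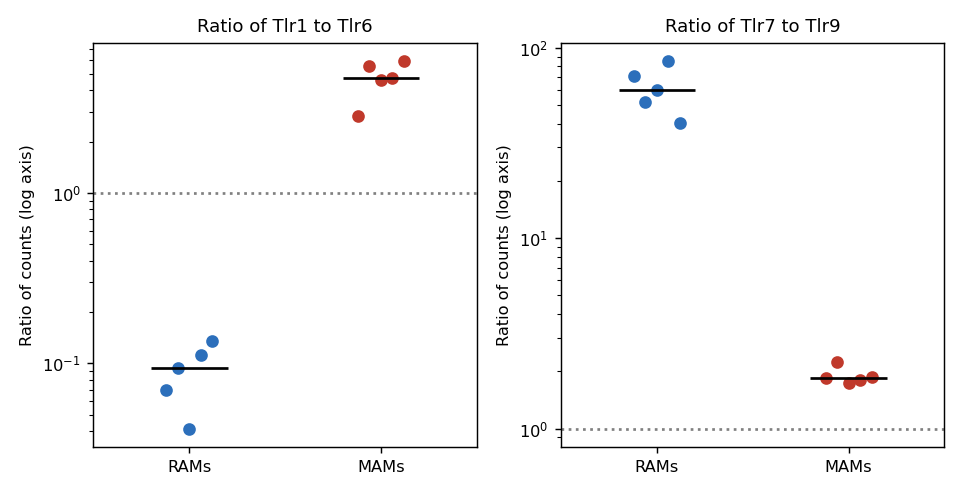
Ratio of counts of Tlr1 to Tlr6 (left) and of Tlr7 to Tlr9 (right) in each RAM (blue) and MAM (red) library, on log axes, with the median as a bar and a ratio of 1 as a dotted line. The median ratio of Tlr1 to Tlr6 was 0.0936 in RAMs and 4.73 in MAMs, and that of Tlr7 to Tlr9 was 60.2 in RAMs and 1.83 in MAMs.

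Levels of different genes were compared by the deposited FPKM, which are scaled by transcript length. In MAMs the order was Tlr13 (150 FPKM on average), Tlr2 (81.8), Tlr8 (70.5), Tlr7 (65.9), Tlr9 (50.8), Tlr4 (42.0), Tlr3 (32.7), Tlr1 (31.0), Tlr6 (8.32) and Tlr5 (6.12). Libraries of neighbors in that order overlapped except between Tlr13 and Tlr2, between Tlr7 and Tlr9, and between Tlr1 and Tlr6. In RAMs the order was Tlr2 (143 FPKM), Tlr8 (110), Tlr7 (48.5), Tlr4 (35.7), Tlr13 (25.7), Tlr5 (24.9), Tlr3 (5.92), Tlr6 (4.98), Tlr9 (1.23) and Tlr1 (0.354). There the neighbors overlapped for Tlr4 and Tlr13, for Tlr13 and Tlr5, and for Tlr3 and Tlr6. The most abundant receptor transcript was thus Tlr13 in MAMs and Tlr2 in RAMs. Counts per kilobase of the longest annotated transcript gave Tlr13 first in MAMs as well, but Tlr8 first in RAMs, ahead of Tlr2. In MAMs they moved Tlr4 from rank 6 to rank 3 and Tlr2 from rank 2 to rank 4, behind Tlr8. The order below Tlr13 in MAMs thus depended on the measure.

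The 10 genes summed to 539 ± 16.6 FPKM in MAMs and 400 ± 28.7 in RAMs (SD, n = 5), and the groups did not overlap. Endosomal receptors made up 369 ± 13.3 FPKM in MAMs and 191 ± 7.56 in RAMs, and cell surface receptors 169 ± 11.4 and 209 ± 28.4 (SD, n = 5). The endosomal share was 66.9% to 71.2% in MAM libraries and 42.1% to 50.5% in RAM libraries, lowest in RAM replicate 1, which had the highest Tlr2. By counts per kilobase, chosen after seeing the data, the mean shares were 65.6% and 52.1%. Single genes shifted in different ways. Tlr13 took 27.8% of the summed FPKM in MAMs and 6.43% in RAMs, and Tlr9 took 9.42% and 0.309%. Tlr2 took 15.2% in MAMs and 35.5% in RAMs, and Tlr8 took 13.1% and 27.6%. Tlr7 held 12.2% in both groups.

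**Figure D4:**
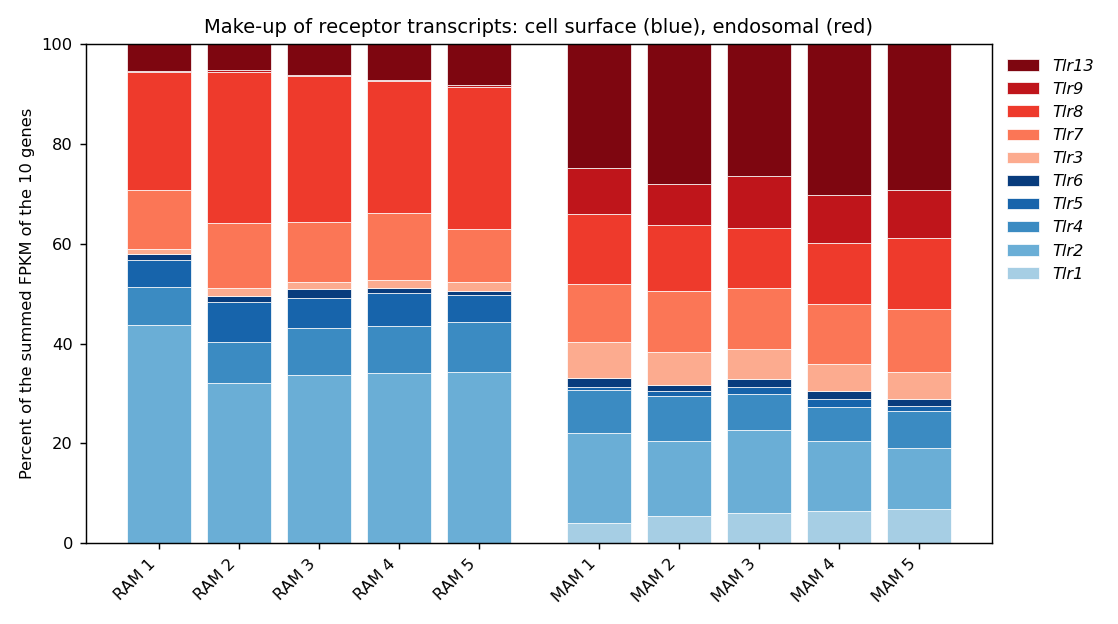
Percent of the summed FPKM of the 10 receptor genes taken by each gene in every library, cell surface receptors in blue and endosomal receptors in red. Red covers 66.9% to 71.2% of the MAM bars and 42.1% to 50.5% of the RAM bars, and the topmost segment, Tlr13, is 27.8% of the MAM total on average against 6.43% in RAMs.

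The other Toll-like receptor genes of the mouse were near the limit of detection. Tlr11 had 132, 96, 97, 103 and 116 counts in MAM libraries and 18, 12, 1, 3 and 6 in RAM libraries, too few to pass the filter. Without a filter its log2 fold change was 3.85 (SE 0.845, adjusted p = 0.00119 by edgeR over 18035 genes). Tlr12 had 1 count in MAM replicate 4 and 0 in every other library, where a count of 0 allows up to 3.

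The rest of the pathway was described with 7 lists of 85 genes, of which 79 were tested. Of these, 58 were higher in MAMs and 7 lower with an adjusted p under 0.05, where 28.9% and 27.3% of all genes were called. By more than 2-fold, 35 rose and 1 fell, beside 15.3% and 15.1% of all genes. The median log2 fold change was 0.86, beside -0.02 over all genes. Of the 79, 6 reached the FPKM filter through MAMs alone (Lbp and the output genes Il6, Il10, Cd40, Ptgs2 and Nos2), which fixed their direction. Of the other 73 genes, 52 were higher and 7 lower, with a median of 0.77. Of all 9834 genes that reached the filter in both groups, 2639 were higher and 2527 lower.

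Ligand binding proteins and co-receptors rose in 6 of 7 cases, beside 28.9% of all genes, with a median log2 fold change of 2.58. Without Lbp this was 5 of 6 cases and a median of 2.34. Cd14, which hands lipopolysaccharide to TLR4, was at 777 CPM in MAMs and 130 in RAMs (log2 fold change 2.58), and Ly96, which encodes the MD-2 chain of the TLR4 complex, was at 65.7 and 15.3 (2.10). Both were higher in every MAM library than in any RAM library, whereas Tlr4 itself overlapped. Cd180, a relative of TLR4, was at 1248 CPM and 123 (3.34), and Ly86, the MD-1 chain that binds it, at 286 and 23.3 (3.62). The scavenger receptor Cd36, a helper of TLR2 and TLR6, was at 1076 CPM and 308 (1.80). Lbp, which carries lipopolysaccharide, had 179 to 707 counts in MAM libraries and 0 to 3 in RAM libraries. Hmgb1, a DNA-binding protein released by damaged cells, was lower (-0.59).

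Among 13 chaperones, transporters and proteases of receptor trafficking, 9 were higher, 1 was lower and 3 did not pass, beside 28.9% of all genes higher and 27.3% lower. The median log2 fold change was 0.36. Unc93b1, which escorts the endosomal receptors, held 350 ± 30.9 CPM in MAMs and 147 ± 21.7 in RAMs (SD, n = 5; log2 fold change 1.25, adjusted p = 5.22e-08 by edgeR). The general chaperones did not pass: Hsp90b1, which encodes gp96, was at -0.13 (adjusted p = 0.264 by edgeR) and its co-chaperone Cnpy3 at 0.07 (adjusted p = 0.697 by edgeR). Under upper-quartile normalization, which moved the median of all genes by -0.16, Hsp90b1 passed at -0.30. Lrrc59 (0.36), Tmed7 (0.33) and Ap3b1 (0.19), which serve receptor transport, rose slightly. Of these, Tmed7 and Ap3b1 did not pass under upper-quartile normalization. The lysosomal transporter Slc15a4 was at 0.22 and did not pass except without RAM replicate 3 (0.28), whereas the gene listed as 5430427O19Rik (Tasl), the adaptor that SLC15A4 holds, rose by 0.71.

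The proteases that cleave endosomal receptors showed the largest differences of that list. Ctsl was at 2449 CPM in MAMs and 297 in RAMs (log2 fold change 3.04), Lgmn at 884 and 119 (2.89), and Ctsb at 6667 and 957 (2.80). Ctss rose by 0.86. Ctsk was the exception and was lower in MAMs, at 27.1 CPM against 144 in RAMs (-2.41).

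Of 5 adaptors tested, 2 were higher, 2 were lower and 1 did not pass, beside 56.2% of all genes called in either direction. None changed by more than 2-fold, and the median log2 fold change was 0.00. Myd88, the adaptor of all these receptors but TLR3, held 81.6 ± 5.6 CPM in MAMs and 55.8 ± 9.15 in RAMs (SD, n = 5; 0.55, adjusted p = 0.000839 by edgeR). Ticam1, which encodes TRIF, rose by 0.58. Its bridge to TLR4, Ticam2, was at -0.29 with overlapping groups, and this call was lost without a filter and without any of 6 of the 10 libraries. Tirap, the bridge to MyD88, was at 0.00 (adjusted p = 0.982 by edgeR), and Pik3ap1, which links the receptors to phosphoinositide 3-kinase, was lower (-0.85). Sarm1 did not pass the filter.

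Of 17 kinases and ubiquitin ligases, 9 were higher and 2 lower, beside 28.9% and 27.3% of all genes. The median log2 fold change was 0.26. The share called in either direction, 64.7%, was near the 56.2% of all genes. Ikbke, a kinase of interferon regulatory factors, stood apart at 153 CPM in MAMs and 7.99 in RAMs (4.26). It was followed by Tab2 (1.03), a partner of the kinase TAK1, and Irak2 (0.95), a kinase of the MyD88 complex. Tab3 (-0.73) and Ikbkb (-0.38) were lower. Of 9 transcription factors, 6 were higher, beside 28.9% of all genes, and 3 did not pass, with a median of 0.92. Their share called in either direction, 66.7%, was also near that of all genes. Irf7, which acts below TLR7 and TLR9, was at 624 ± 37.4 CPM in MAMs and 11.1 ± 1.35 in RAMs (SD, n = 5; log2 fold change 5.81, adjusted p = 3.36e-15 by edgeR). Irf5 (2.46) and the NF-kappa B subunit Relb (1.84) followed.

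Negative regulators were higher in 8 of 10 tested cases and lower in 1, beside 28.9% and 27.3% of all genes, with a median log2 fold change of 0.74. Nfkbia, the inhibitor of NF-kappa B, rose by 1.60, and the repressor Atf3 by 1.38. Socs1 rose by 3.13, and by 4.45 without RAM replicate 3, whose 126 counts were the most of any RAM library. Rnf216, a ubiquitin ligase, was lower (-0.66). All 18 tested genes of the output list, cytokines and other genes known to be induced by these receptors, were higher in MAMs, beside 28.9% of all genes. By more than 2-fold, 17 were higher, beside 15.3% of all genes, and the median was 4.92. The filter fixed the direction of 5, which had passed it through MAMs alone. The other 13 had reached the filter in both groups. Of the 13, 12 were over 2-fold higher, beside 1070 of all 9834 such genes, with a median of 4.37. Cd40, a costimulatory receptor, was at 41.3 CPM in MAMs and 0.494 in RAMs (6.39), Acod1, the enzyme of itaconate synthesis, at 243 and 3.01 (6.34), and the chemokine Cxcl10 at 829 and 10.3 (6.33). As with Tlr1, these RAM levels were very low beside the MAM levels, and RNA carried between samples was not tested as their source. The exception in size, named after its value was seen, was Tnf (0.42), whose groups overlapped. Ifnb1, Il12a and Il12b did not pass the filter.

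**Figure D5:**
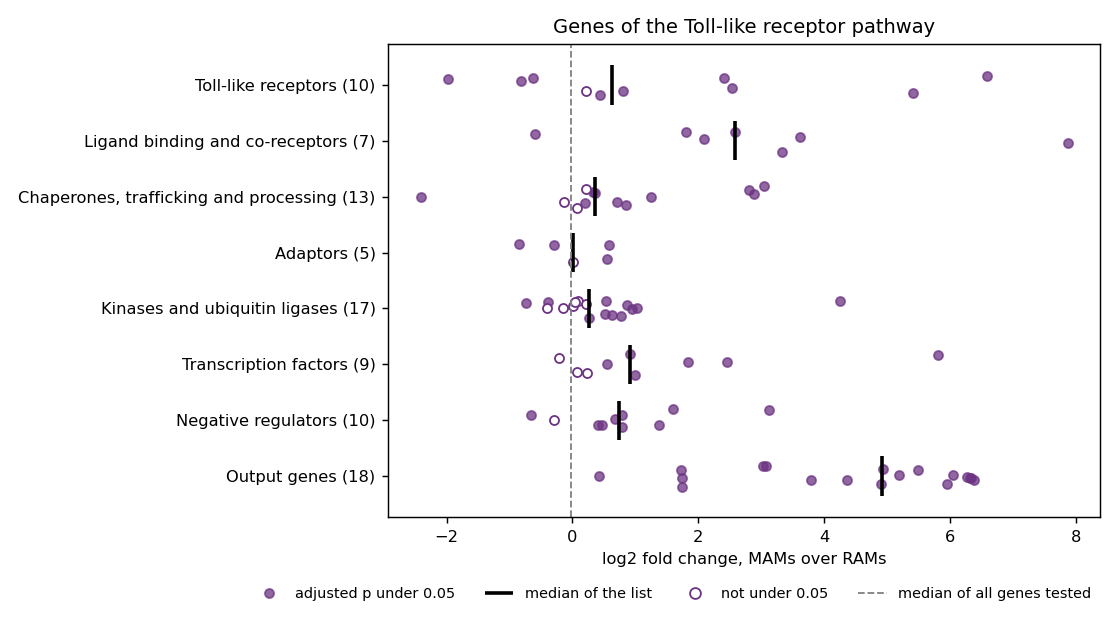
Log2 fold change (MAMs over RAMs) of each tested gene of the Toll-like receptors and of 7 pathway lists, with the number of tested genes in parentheses, filled circles for an adjusted p under 0.05, black bars for list medians and a dashed line for the median of all genes (-0.02). Output genes (median 4.92) and co-receptors (2.58) lie to the right, adaptors (0.00) lie around 0, and the rightmost co-receptor point is Lbp, whose 0 to 3 RAM counts make its fitted value depend on the added count.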

How the data were processed

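RNA-seq of sorted lung macrophages was compared between MAMs and RAMs (5 libraries each). The authors aligned paired reads to GRCm38 with TopHat2 2.0.13, counted reads per gene with HTSeq 0.6.1 and deposited whole-number counts without normalization. The authors also deposited FPKM values from Cufflinks 2.2.1, scaled by transcript length and mapped fragments. A strand setting of the counting is not given in the sources used here. Lines that name no gene, 54.6% to 58.3% of each MAM file and 62.2% to 64.1% of each RAM file, were left out. The deposited counts were fitted with edgeR 4.0.16 (TMM, quasi-likelihood test, no covariates, R 4.3.3), with Benjamini-Hochberg adjustment at 0.05. The fit covered the 11571 genes whose mean FPKM reached 1 in either group and that had at least 1 count. It was tested on simulated data, in which far fewer genes differed than were called here. Log2 CPM used a prior count of 2, and ratios had 0.5 added to each count. The Toll-like receptor genes and the gene lists were chosen with earlier results of these data known. The named genes are all 10 receptors, all genes of the co-receptor, trafficking and adaptor lists and of the other mouse receptors, the 3 highest and 3 lowest called log2 fold changes of each other list, and the 3 genes most like Tlr1 and Tlr5, the called receptors with the highest and lowest log2 fold change. Of the genes most like Tlr1, 1 is not reported here. Of the marker lists, the most abundant and defining genes are named, and any other listed gene was named after its values were seen. Replicate numbers were not taken as pairs in the main fit. Same-numbered libraries deviated together with correlations of -0.0358 to 0.0353, which cannot settle whether they were handled together. Gene positions came from GENCODE M21, and promoter windows from RefSeq. Alternatives were RLE and upper-quartile normalization, edgeR's own filter, no filter, a replicate block, DESeq2 1.42.0, limma 3.58.1 on log2(FPKM + 1) or log2(FPKM + 0.1), testing against a 2-fold change, and leaving out each library in turn. The limit of 3 for a count of 0 covers counting error alone, as reads that carry no molecular identifiers can be copies of 1 molecule. Figures were drawn with matplotlib 3.10.9.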

Additional observations from a re-analysis of the deposited data

Results flagged for a closer look

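Of 24 sets of 5 values, 4 held a library whose distance to its nearest neighbor was over 0.71 of the range of its group, where chance flags about 1 in 20 sets. Tlr2 was highest in RAM replicate 1, at 566 CPM, and Tlr5 in RAM replicate 2, at 100.1 CPM. Tlr7 was lowest in MAM replicate 1, at 278 CPM. The ratio of Tlr7 to Tlr9 was highest in MAM replicate 2, at 2.23.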

How the results depend on the processing

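Of the 10 receptor genes, 9 passed under the main settings and 9 to 10 with a library left out. The number with a fold change over 2 was 5 in each of these fits. Tested against a fold change of 2, 5 receptor genes and 35 pathway genes passed, against 9 and 65 without that limit. With a library left out, 63 to 66 pathway genes passed. With the replicate number as a block, 9 receptor genes and 64 pathway genes passed. Only 2 MAM libraries were closest to the RAM library of their own number, which does not settle whether the numbers pair the samples. As pairs, the ratio of Tlr1 to Tlr6 differed by 5.78 and that of Tlr7 to Tlr9 by -4.99 on the log2 scale, each with an exact permutation p = 0.0625, the smallest that 5 pairs allow. With a library left out, these differences ran from 5.53 to 5.96 and from -5.13 to -4.86. Upper-quartile normalization moved the median of all genes by -0.16 and gave 11 lower pathway genes in place of 7. Over all genes, the number called over 2-fold ran from 2511 tested against a fold change of 2 to 4672 without a filter, against 3511. Limma on log2(FPKM + 1) gave 4.54 for Tlr1 and 4.54 for Tlr9, since the added value weighs on low levels. No called result reversed. Of the genes named that did not pass, Cnpy3 and Tirap changed sign between settings. Depth limits genes with few counts, such as Tlr11, Tlr12, Lbp in RAMs and Tlr1 in RAMs.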
